A study of Homo sapiens with 12 samples.

Results

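The expression of CD38, its paralogue BST1 and 8 genes of nicotinamide adenine dinucleotide (NAD) synthesis, clearance and use was followed in HL60 cells treated with ATRA, CDK4/6i or both. The genes were taken by symbol from a list of 10 (CD38, BST1, NAMPT, NAPRT, NADSYN1, NNMT, QPRT, NMNAT1, NMNAT3 and PARP1), and 10 of 10 were found among the 59251 genes of the RNA-Seq count table. HL60 is a human acute myeloid leukemia line that grows as promyelocyte-like cells and carries no PML-RARA fusion. For 48 h, cells received no drug (non-treated), all-trans retinoic acid at 1 µM (ATRA), the CDK4 and CDK6 inhibitor palbociclib at 1 µM (CDK4/6i), or both at these doses (CDK4/6i+ATRA), and each group had 3 libraries labelled as biological replicates. The labels name no vehicle for the non-treated cells, and 1 cell line at 1 dose and 1 time was measured.

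NAD carries electrons in metabolism and is also consumed by enzymes that cut it into nicotinamide and ADP-ribose. Most cells rebuild it from nicotinamide through NAMPT and the NMNAT enzymes, while NAPRT and NADSYN1 use nicotinic acid and QPRT ends the route from tryptophan. CD38 and BST1 are ectoenzymes that hydrolyse NAD or cyclise it to the calcium messenger cyclic ADP-ribose, and CD38 is a classical surface marker of retinoid-treated HL60 cells.

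Total counts ranged from 12230923 to 18679544 per library, and the 3 lowest totals, 12230923 to 14415276, were those of CDK4/6i+ATRA. Levels are given as library-scaled counts (CPM) after TMM normalization, which compare 1 gene between libraries, or per kilobase of exon (RPKM), which compares genes. A gene was called when the edgeR quasi-likelihood test over all 13318 genes tested gave an adjusted p under 0.05. The myeloid identity of the line was visible in MPO, the neutrophil peroxidase, with 104456 to 112496 counts in non-treated libraries. ELANE, PRTN3 and AZU1, also granule genes, were at 0 in all 12 libraries, and the table lists each of them on 2 contigs. The summed level of the 9 myeloid markers was 7260 to 7580 CPM in non-treated cells, 1288 to 1342 CPM with ATRA, 4467 to 4581 CPM with CDK4/6i and 1249 to 1308 CPM with both. MPO made up most of this sum in non-treated cells (mean 6517 CPM) and with CDK4/6i (3469 CPM), but not with ATRA (293 CPM) or both drugs (28.0 CPM), and the other markers did not move together: with both drugs SPI1 rose by 1.503 and CEBPE by 0.75, CD33 was not called (0.09), and MYB and CTSG fell. Among markers of lymphoid, erythroid, epithelial and fibroblast cells, the B cell gene CD79A was the highest, with 3771 counts over the 12 libraries. ITGAM, which encodes CD11b, rose with each treatment, by 4.88 with ATRA, 1.39 with CDK4/6i and 5.99 with both on the log2 scale. The part of these marker levels in the results for the NAD genes was not tested, and in RNA from whole cultures a change in the share of cells that use a gene and a change in RNA per cell cannot be told apart.

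Of the 10 genes, 8 passed the filter on low counts, CD38 only through the 6 libraries that received ATRA, alone or with CDK4/6i, and NAPRT and NNMT had no count in any library. Against non-treated cells, ATRA raised 4 (CD38, BST1, NADSYN1 and NMNAT1) and lowered 1 (PARP1), where 32.1% of all tested genes were called higher and 35.5% lower (67.6% in all). CDK4/6i raised 4 (BST1, NAMPT, NADSYN1 and NMNAT1) and lowered 2 (QPRT and PARP1), against 28.3% and 27.9% of all tested genes (56.2% in all). CDK4/6i+ATRA raised 5 (CD38, BST1, NAMPT, NADSYN1 and NMNAT1) and lowered 2 (QPRT and PARP1), against 41.0% and 40.7% (81.7% in all). By library size alone this last split was 5 higher and 3 lower, and that of all genes went from 5461 higher and 5424 lower to 4376 and 6431. With so many genes called in each comparison, the number of calls among these genes carries little by itself, and the sizes and patterns are what set them apart from each other. The 8 had a median log2 fold change of 0.11 with ATRA, 0.35 with CDK4/6i and 0.97 with both, beside -0.03, 0.02 and 0.02 over all tested genes. The medians of the 8 include CD38, which entered only through libraries where it was high. The list was also chosen with earlier results known, so these medians are no test of a shift of the set. These 3 comparisons share the non-treated libraries.

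**Figure D1:**
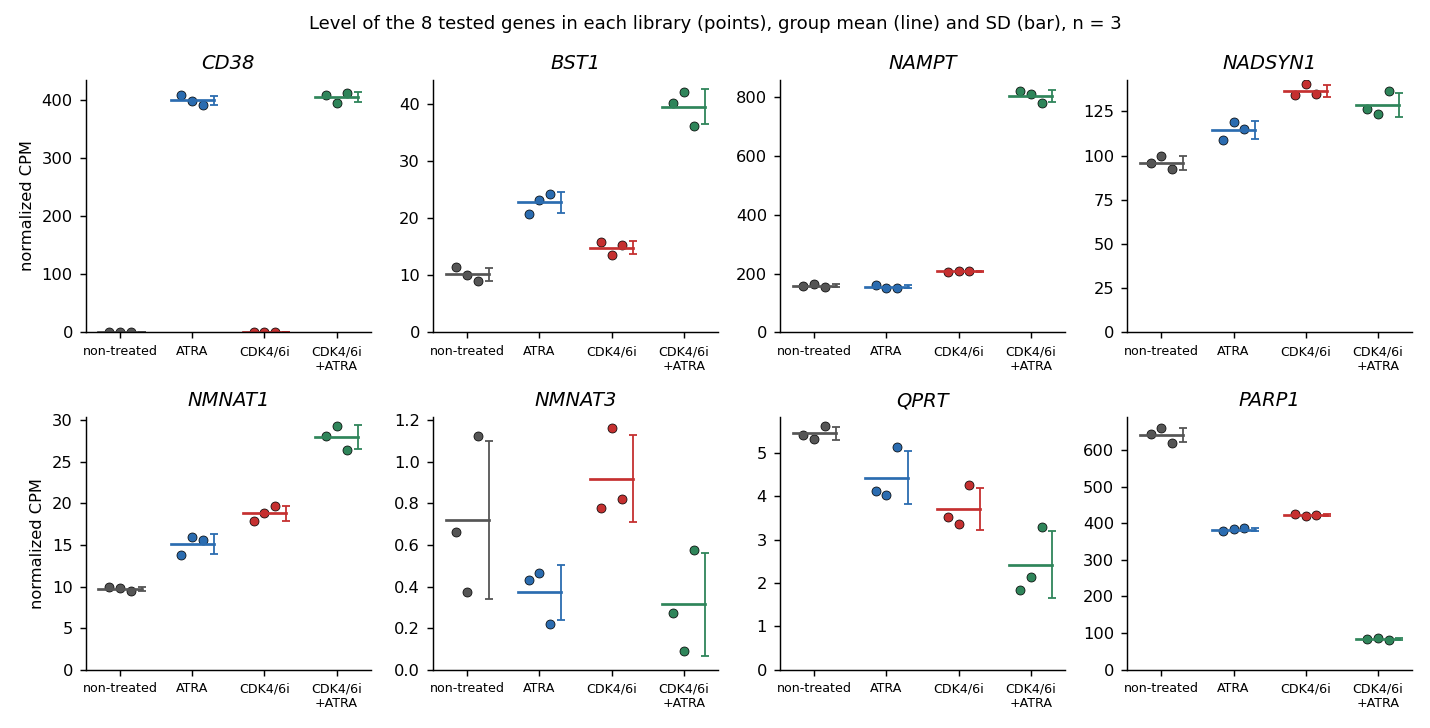
Normalized level (CPM, linear axis from 0) of the 8 tested genes in each of the 12 libraries by treatment group. Points are libraries, lines are group means and bars are the SD (n = 3). CD38 is near 0 in non-treated and CDK4/6i-treated cells and between 392 and 412 CPM in the 6 libraries with ATRA, and with both drugs NAMPT is at its highest and PARP1 at its lowest.

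CD38 was all but absent without ATRA and abundant with it. The gene lies on the plus strand of chromosome 4 (hg38, chr4:15778328-15853232, 8 exon blocks in the table). Non-treated libraries held 8, 0 and 1 reads of CD38, and CDK4/6i-treated libraries 5, 5 and 0. ATRA-treated libraries held 6618, 6840 and 7091 reads, and CDK4/6i+ATRA-treated libraries 4461, 4435 and 4984. No library with ATRA came near one without it. In normalized terms, CD38 stood at 0.179 ± 0.263 CPM in non-treated cells, 0.188 ± 0.165 CPM with CDK4/6i, 399 ± 8.08 CPM with ATRA and 405 ± 8.81 CPM with both (SD, n = 3 each).

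The fitted log2 fold change of CD38 was 11.06 with ATRA (SE 0.119, adjusted p = 9.1e-52) and 11.08 with CDK4/6i+ATRA (SE 0.120, adjusted p = 3.1e-52). CD38 entered the test only through the libraries where it was high, so these p-values carry no more than the counts themselves. Because non-treated cells gave only 9 reads in all, the ratio of summed counts is known only loosely: 2233 for ATRA over non-treated cells, with a 95% interval of 1176 to 4884 from counting error alone. The interval of the fit with ATRA, 1812- to 2525-fold, was narrower than this, so the SEs of 0.119 and 0.120 understate the uncertainty. Of these 9 reads, 8 came from 1 library, and without it the ratio was 13454 (2414 to 531412) and the log2 fold change was 13.37 with ATRA and 13.39 with both drugs. CDK4/6i alone gave a log2 fold change of 0.08 (SE 0.713, adjusted p = 0.935), an interval of -1.35 to 1.52 that spans both directions.

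Whether adding CDK4/6i to ATRA moved the CD38 RNA level depended on the scaling. These values do not measure CD38 protein at the cell surface. The log2 difference between CDK4/6i+ATRA and ATRA was 0.02 (SE 0.0430, adjusted p = 0.672), a fold of 1.01 with a 95% interval of 0.956 to 1.08, and the CPM values of the groups overlapped. Library size alone in place of TMM gave -0.28 (adjusted p = 8.9e-07), and in transcript shares (TPM), which carry no TMM factor, CD38 was lower with both drugs (140 ± 8.52 TPM) than with ATRA (192 ± 2.88 TPM; SD, n = 3), with no overlap. The same scaling moved the median of all genes in this comparison from 0.04 to -0.26, and relative to that median CD38 stood at -0.02 under either scaling.

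The 250 bases before the CD38 start are shown beside those of NAMPT and PARP1, whose values with CDK4/6i+ATRA lie at opposite ends of the other genes, because the promoters differ in CpG content, the density of CG dinucleotides that separates CpG island promoters from the rest. Capitals mark CG dinucleotides, each sequence is written 5′ to 3′ on the gene's own strand, and coordinates and sequences are those of RefSeq (GRCh38.p14), with CD38 at chr4:15778078-15778327 (plus), NAMPT at chr7:106284984-106285233 (minus) and PARP1 at chr1:226408094-226408343 (minus).
CD38: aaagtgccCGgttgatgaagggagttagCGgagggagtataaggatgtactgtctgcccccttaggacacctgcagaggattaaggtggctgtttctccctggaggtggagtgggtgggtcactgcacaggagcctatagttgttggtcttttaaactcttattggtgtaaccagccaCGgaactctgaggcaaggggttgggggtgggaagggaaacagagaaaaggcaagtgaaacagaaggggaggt
NAMPT: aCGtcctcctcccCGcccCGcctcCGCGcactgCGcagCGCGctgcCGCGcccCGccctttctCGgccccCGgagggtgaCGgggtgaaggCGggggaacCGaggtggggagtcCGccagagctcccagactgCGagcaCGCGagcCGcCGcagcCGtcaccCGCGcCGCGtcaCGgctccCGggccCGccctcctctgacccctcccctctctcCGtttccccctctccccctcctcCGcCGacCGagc
PARP1: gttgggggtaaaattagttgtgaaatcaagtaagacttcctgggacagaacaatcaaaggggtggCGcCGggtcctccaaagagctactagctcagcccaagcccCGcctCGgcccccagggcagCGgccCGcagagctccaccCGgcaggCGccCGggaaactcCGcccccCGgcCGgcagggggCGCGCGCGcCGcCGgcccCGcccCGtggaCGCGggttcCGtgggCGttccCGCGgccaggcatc
CD38 held 3 CG dinucleotides in this window, at the 22.9th percentile of 35116 start sites, whereas NAMPT held 34 (93.2nd percentile) and PARP1 26 (80.4th percentile), and the median start site held 11. A low count was not particular to CD38, since the 2 QPRT start sites held 1 and 2 (6.06th and 14.7th percentile), NMNAT3 held 14 and 8, NADSYN1 29 and NMNAT1 21. The RefSeq start used for NAMPT lies inside the extent that the table gives for the gene. Of the 10 genes, 7 were matched to 9 start sites. AGGTCA, 1 form of the half-site that retinoic acid receptors and other nuclear receptors can bind, and CACGTG, the E-box, were searched on both strands and were in none of the 9 windows, while 12.1% and 6.34% of all windows held them. Only these exact sequences in the 250 bases were searched. Other forms of the half-site, and sites elsewhere in or around the genes, were not, so a lack of receptor sites is not shown.

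BST1 encodes the GPI-anchored ectoenzyme also called CD157 and rose with every treatment, in graded steps. It lies on the same strand as CD38 (chr4:15703065-15774173), and 4154 bases with no tested gene separate the 2 genes. The non-treated libraries gave 11.4, 9.97 and 9.07 CPM and the CDK4/6i libraries 15.7, 13.5 and 15.3 CPM. The ATRA libraries gave 20.8, 23.1 and 24.2 CPM and the CDK4/6i+ATRA libraries 40.1, 42.1 and 36.1 CPM. The 4 groups did not overlap, and their order was non-treated, CDK4/6i, ATRA and CDK4/6i+ATRA. BST1 rose by 0.55 on the log2 scale with CDK4/6i (SE 0.102, adjusted p = 6.3e-06), 1.17 with ATRA (SE 0.0956, adjusted p = 2.1e-15) and 1.96 with both (SE 0.0932, adjusted p = 9.2e-25). With both drugs BST1 was also higher than with ATRA alone (log2 difference 0.79, adjusted p = 4.5e-12) and than with CDK4/6i alone (1.41, adjusted p = 4.5e-20).

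The genes around the CD38 and BST1 pair were read as well, 3 tested genes on each side. Towards lower coordinates, FBXL5, an iron-sensing ubiquitin ligase subunit, rose by 1.40 with ATRA and 0.56 with CDK4/6i on the log2 scale and was 6.49-fold higher with both, and FAM200B rose by 1.26, 0.44 and 2.23. FBXL5 and FAM200B overlap on opposite strands, so reads of one may count for the other. CC2D2A, a ciliary gene, had 4 to 6 reads per non-treated library and 11 to 17 with both drugs, with 4 to 10 with ATRA and 5 to 9 with CDK4/6i, and it passed the filter only through the group with both drugs. Towards higher coordinates, TAPT1 rose by 0.45 with ATRA and 0.19 with both, and its antisense neighbour TAPT1-AS1 was not called against non-treated cells. In TPM the mean of TAPT1 was instead lower with both drugs (8.35 ± 0.745 TPM) than in non-treated cells (9.83 ± 0.927 TPM; SD, n = 3). QDPR, which recycles tetrahydrobiopterin, fell by 1.24 with ATRA and by 2.48 with both, and rose by 0.23 with CDK4/6i. The log2 fold change of 11.06 for CD38 with ATRA thus stood beside values between -1.24 and 1.40 for its 7 neighbours, BST1 among them.

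**Figure D2:**
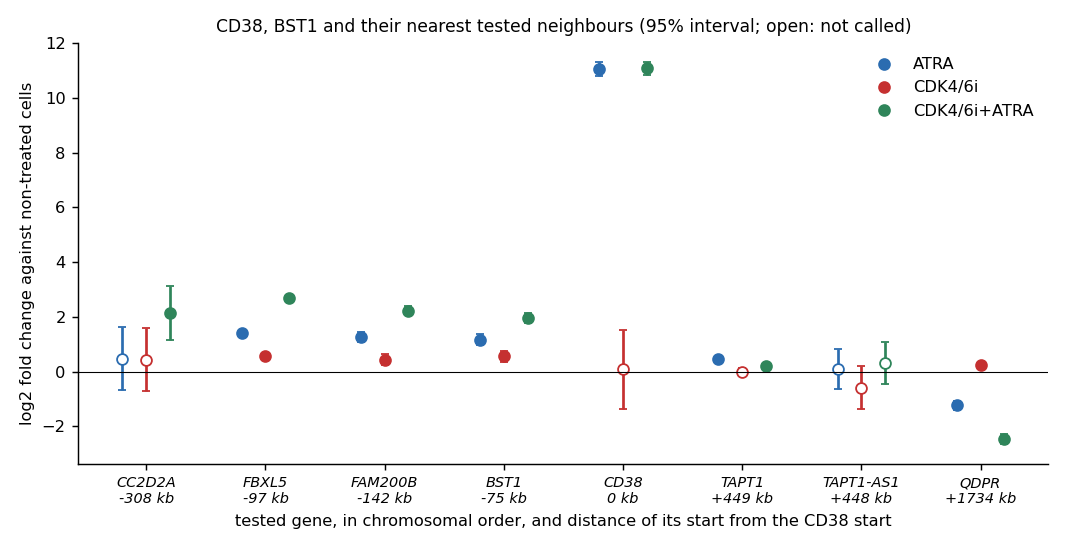
Log2 fold change against non-treated cells (vertical axis) of BST1, CD38 and the 3 nearest tested genes on either side, ordered by position on chromosome 4, with the distance of each gene's start from the CD38 start in kb. Points are estimates for ATRA, CDK4/6i and CDK4/6i+ATRA, bars are 95% intervals and open points were not called. For CD38 with ATRA and with both drugs, the bars are narrower than counting error alone allows. CD38 lies at 11.06 with ATRA and 11.08 with both drugs, far above the other genes, of which QDPR reaches -2.48 with both drugs.

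NAMPT, the rate-limiting enzyme of NAD salvage from nicotinamide, behaved unlike CD38: it did not pass the test with ATRA and was highest with both drugs. It lies on the minus strand of chromosome 7 (chr7:106248298-106285888). Non-treated libraries gave 159, 165 and 154 CPM and ATRA-treated libraries 161, 152 and 152 CPM, and these ranges overlapped. CDK4/6i-treated libraries gave 205, 208 and 208 CPM. CDK4/6i+ATRA-treated libraries gave 821, 809.9 and 780.4 CPM, far above every other library. In the fit, NAMPT had a log2 fold change of -0.04 with ATRA (SE 0.0398, adjusted p = 0.375, interval -0.12 to 0.04), 0.38 with CDK4/6i (SE 0.0391, adjusted p = 7.3e-12) and 2.34 with CDK4/6i+ATRA (SE 0.0386, adjusted p = 2.3e-44), a fold of 5.05. Against ATRA alone the log2 difference was 2.38 (adjusted p = 4.7e-44), rank 253 from the top among 13318 genes, and against CDK4/6i alone it was 1.96 (adjusted p = 3.1e-41). The processed pseudogene NAMPTP1 took 460 reads over the 12 libraries, beside 54386 for NAMPT.

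Of the enzymes that finish NAD synthesis, NADSYN1 and NMNAT1 rose with each treatment and NMNAT3 was not called higher in any comparison. NADSYN1, the NAD synthetase that amidates the nicotinic acid form, gave 96.0, 99.9 and 92.2 CPM in non-treated cells, 109, 119 and 115 CPM with ATRA, 134, 141 and 135 CPM with CDK4/6i and 127, 124 and 136 CPM with both. In CPM all treated libraries lay above the non-treated ones, and those with both drugs overlapped those with CDK4/6i. In TPM, the libraries with both drugs (93.4 ± 4.71 TPM) overlapped the non-treated ones (93.6 ± 3.66 TPM; SD, n = 3), so the rise with both drugs was not seen on that scale. Its log2 fold change was 0.25 with ATRA (adjusted p = 1.9e-06), 0.51 with CDK4/6i (adjusted p = 2.3e-14) and 0.43 with both (adjusted p = 7.4e-12). The log2 difference of NADSYN1 between CDK4/6i+ATRA and ATRA was 0.17 (adjusted p = 6.9e-04) with TMM, -0.13 (adjusted p = 0.0080) by library size alone and 0.08 (adjusted p = 0.265) with no filter on low counts, so its direction was not stable.

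NMNAT1, the nuclear adenylyltransferase that makes NAD from its mononucleotide, gave 9.98, 9.78 and 9.46 CPM in non-treated cells and 13.8, 16.0 and 15.6 CPM with ATRA. It gave 17.9, 18.8 and 19.7 CPM with CDK4/6i and 28.0, 29.3 and 26.4 CPM with both. In CPM the 4 groups did not overlap, in the order non-treated, ATRA, CDK4/6i and CDK4/6i+ATRA, while in TPM the last 2 overlapped. The log2 fold change of NMNAT1 was 0.64 with ATRA (SE 0.0974, adjusted p = 1.1e-07), 0.95 with CDK4/6i (SE 0.0941, adjusted p = 2.3e-12) and 1.52 with both (SE 0.0941, adjusted p = 3.5e-20). In contrast, NMNAT3, the mitochondrial form, had between 1 and 20 reads per library and 115 in all. It passed the filter only with the CDK4/6i libraries, where it was highest with 14 to 19 reads, against 1 to 7 with both drugs. The fitted log2 difference between these groups, -1.49, therefore carries no more than the counts, and its call was lost without CDK4/6i replicate 2 (-1.29) or CDK4/6i+ATRA replicate 2 (-1.06). NMNAT3 was called in no other comparison with all libraries and TMM. COPB2-DT, which overlaps NMNAT3 on the opposite strand, had 75 reads, so part of this low signal may be shared.

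QPRT, which turns quinolinate from tryptophan into a NAD precursor, was low and fell with CDK4/6i and with both drugs. It had 85 to 100 reads per library in non-treated cells, 67 to 93 with ATRA, 55 to 73 with CDK4/6i and 20 to 40 with both. The mean level went from 5.46 ± 0.156 CPM in non-treated cells to 4.43 ± 0.615 CPM with ATRA, 3.72 ± 0.485 CPM with CDK4/6i and 2.43 ± 0.777 CPM with both (SD, n = 3). QPRT had a log2 fold change of -0.30 with ATRA (adjusted p = 0.127, not called), -0.55 with CDK4/6i (adjusted p = 0.0069) and -1.15 with both (adjusted p = 2.7e-06). The difference between CDK4/6i+ATRA and CDK4/6i was called (-0.60, adjusted p = 0.0128) and lost without CDK4/6i replicate 3 (-0.49) or CDK4/6i+ATRA replicate 1 (-0.44) or 2 (-0.51).

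NNMT, which methylates nicotinamide for clearance, and NAPRT, which starts the nicotinic acid route, had 0 reads in all 12 libraries. A count of 0 allows up to 3 reads, between 0.156 and 0.275 CPM depending on the library. The table lists NAPRT on chromosome 8 and on an alternate contig, and 17 of the 25 genes on the same contigs (68.0%) also had no count, as had 65.9% of the 4379 genes listed on a primary chromosome and another contig and 51.5% of the 54783 genes listed on 1. Whether NAPRT reads were left uncounted was not tested, and no level is given for this gene. NNMT is listed on chromosome 11 alone and was not detectable at this depth.

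PARP1, the main consumer of NAD in DNA repair, had the highest level per length of the 8 genes in non-treated cells (161 RPKM) and fell with each treatment. It lies on the minus strand of chromosome 1 (chr1:226360691-226408093). Non-treated libraries gave 644, 659 and 619 CPM. ATRA-treated libraries gave 378, 383 and 386 CPM and CDK4/6i-treated libraries 425, 421 and 422 CPM. CDK4/6i+ATRA-treated libraries gave 83.6, 87.3 and 82.0 CPM. No 2 groups overlapped in CPM, and in TPM only ATRA and CDK4/6i did. PARP1 had a log2 fold change of -0.74 with ATRA (SE 0.0358, adjusted p = 4.2e-24), -0.60 with CDK4/6i (SE 0.0357, adjusted p = 4.1e-20) and -2.93 with both (SE 0.0422, adjusted p = 7.0e-47), which left 13.2% of the non-treated level. Genes of dividing cells moved in the same libraries. With both drugs, the log2 fold change was -6.08 for MKI67, -5.98 for CCNA2 and -4.78 for MCM2, and with CDK4/6i alone it was -4.985 for MKI67 and -1.56 for MCM2. With ATRA alone, PARP1 fell while MKI67 rose by 0.63, CCNA2 was not called (-0.01, adjusted p = 0.779) and MCM2 fell by 0.52. The part of the cell cycle in the PARP1 values was not tested.

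**Figure D3:**
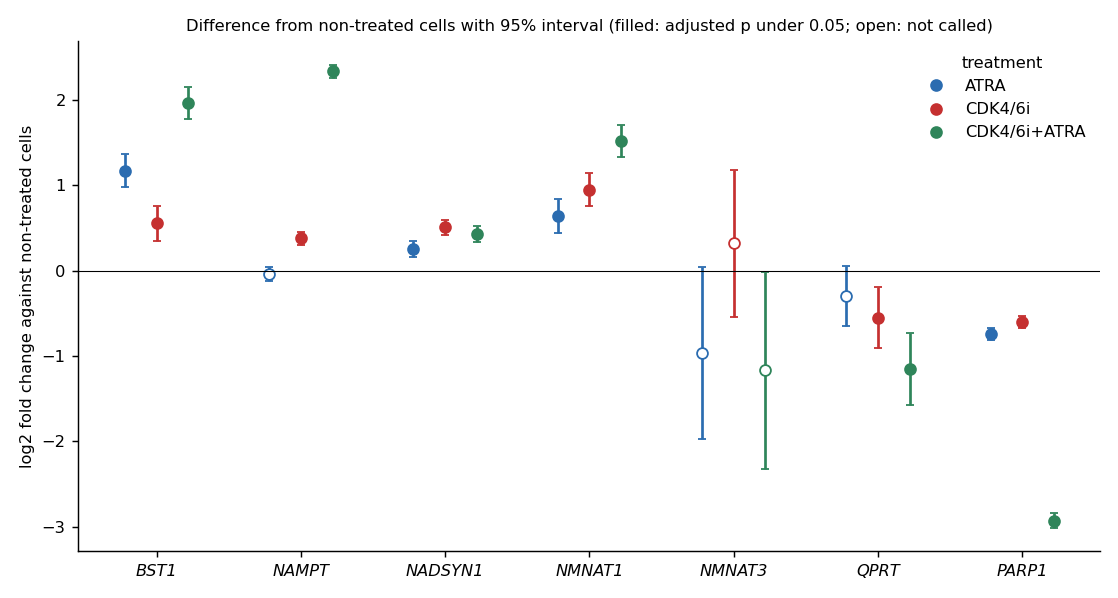
Log2 fold change against non-treated cells (vertical axis) of the 7 tested genes other than CD38, with 95% intervals. Colours give the treatment, filled points were called at an adjusted p under 0.05 and open points were not. NAMPT reaches 2.34 and PARP1 -2.93 with both drugs, and the intervals of NMNAT3 are the widest.

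Whether the drugs combined as the sum of their single effects on the log2 scale was tested by the interaction, the log2 fold change with both drugs minus the sum of those with each. It was called for 3 of the 8 genes, 1 higher (NAMPT) and 2 lower (NADSYN1 and PARP1), where 24.5% of all tested genes were called higher and 27.0% lower (51.4% in all). By library size alone the split of all genes went from 3258 higher and 3594 lower to 1375 and 6061, and that of the 8 genes from 1 and 2 to 1 and 3. NAMPT exceeded the sum of 0.34 by 2.00 (SE 0.0545, adjusted p = 1.5e-32), rank 284 from the top among 13318 genes. For PARP1 the sum of the single effects was -1.34 and the interaction -1.58 (SE 0.0554, adjusted p = 9.4e-29). For NADSYN1 the sum was 0.76 and the interaction -0.34 (SE 0.0627, adjusted p = 1.0e-05), and its level with both drugs was not called different from that with CDK4/6i alone (-0.08, interval -0.17 to 0.0062). The interaction was not called for BST1 (0.24, interval -0.03 to 0.50), NMNAT1 (-0.07, interval -0.33 to 0.19), QPRT (-0.30, interval -0.87 to 0.27) and NMNAT3 (-0.52, interval -2.08 to 1.03). For CD38 it was -0.06 with an interval of -1.48 to 1.36, too wide to show additivity, because its level without ATRA rests on so few reads. Scaling by library size alone moved the median interaction of all genes from -0.02 to -0.34. The interaction was then 1.68 for NAMPT, -1.90 for PARP1 and -0.66 for NADSYN1, with that of NMNAT1 called in addition (-0.39, adjusted p = 0.0121).

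**Figure D4:**
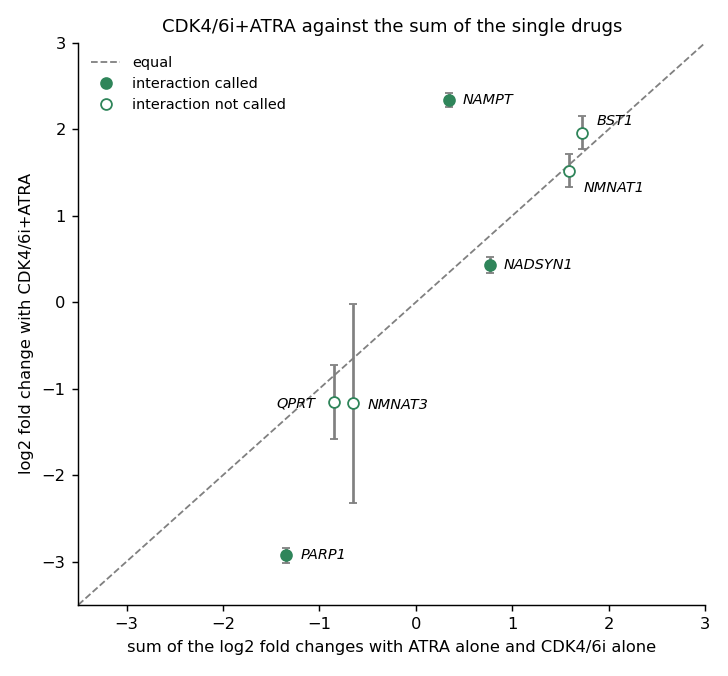
Log2 fold change with CDK4/6i+ATRA (vertical axis, with 95% interval) against the value obtained by adding the single-drug log2 fold changes (horizontal axis) for the 7 tested genes other than CD38. The dashed line marks equality and filled points had a called interaction. NAMPT lies 2.00 above the line and PARP1 1.58 and NADSYN1 0.34 below it.

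Between the treatments, CDK4/6i+ATRA raised 4 of the 8 genes over CDK4/6i alone (CD38, BST1, NAMPT and NMNAT1) and lowered 3 (QPRT, NMNAT3 and PARP1), beside 39.1% and 39.5% of all tested genes (78.6% in all). NMNAT3 entered this test only through the group where it was high, and with 1 library left out between 5 and 8 genes were called, as the calls of QPRT and NMNAT3 were lost without single libraries and NADSYN1 was called lower without CDK4/6i+ATRA replicate 3 (-0.13). By library size alone, 4 were higher and 4 lower, and the split of all genes went from 5212 higher and 5261 lower to 3805 and 6554. Over ATRA alone it raised 4 (BST1, NAMPT, NADSYN1 and NMNAT1) and lowered 2 (QPRT and PARP1), beside 36.9% and 32.8% of all tested genes (69.8% in all). By library size alone, the latter split was 3 higher and 4 lower, with NADSYN1 changing side and CD38 added to the lower genes, and that of all genes went from 4920 higher and 4371 lower to 2956 and 6412. PARP1 fell by 2.18 against ATRA and by 2.33 against CDK4/6i on the log2 scale, and these differences were -2.49 and -2.60 by library size alone.

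Per length of exon, the order of the levels was rearranged by the treatments. In non-treated cells it ran from PARP1 (161 RPKM) through NADSYN1 (35.8 RPKM), NAMPT (25.6 RPKM), BST1 (2.37 RPKM), QPRT (2.30 RPKM), NMNAT1 (1.55 RPKM) and NMNAT3 (0.246 RPKM) to CD38 (0.0319 RPKM). With ATRA, CD38 was second at 71.1 RPKM, behind PARP1 at 96.1 RPKM and ahead of NADSYN1 at 42.7 RPKM. With CDK4/6i, PARP1 (106 RPKM), NADSYN1 (51.0 RPKM) and NAMPT (33.3 RPKM) kept the first places and CD38 the last. With CDK4/6i+ATRA, NAMPT came first (129 RPKM), before CD38 (72.1 RPKM), NADSYN1 (48.1 RPKM) and PARP1 (21.2 RPKM). Of the neighbours in these orders, only BST1 and QPRT in non-treated cells had libraries that overlapped. 

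The rest of NAD metabolism was read from a list of 68 genes, of which 41 passed the filter. Both drugs together raised 19 of the 41 and lowered 18 (median log2 fold change 0.02, 90.2% called), ATRA alone raised 18 and lowered 14 (median 0.05, 78.0% called) and CDK4/6i alone raised 14 and lowered 9 (median 0.08, 56.1% called). These shares stand beside 81.7%, 67.6% and 56.2% of all tested genes. With CDK4/6i+ATRA against ATRA alone, 15 were higher and 12 lower, but 4 and 23 by library size alone.

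The 4 tested genes that remove ADP-ribose from proteins were all called lower with CDK4/6i+ATRA, where 40.7% of all tested genes were. PARG, which degrades the poly(ADP-ribose) that PARP1 makes, was at 44.2 ± 1.10 CPM in non-treated cells and fell with both drugs (log2 fold change -0.42, adjusted p = 1.3e-07), and ADPRS, a hydrolase for ADP-ribosylated serine, from 27.6 ± 1.72 to 19.2 ± 1.03 CPM (-0.53, adjusted p = 1.9e-07). MACROD1, chosen after its values were seen, fell furthest, from 40.2 ± 1.86 CPM to 12.5 ± 0.658 CPM with ATRA and 3.14 ± 0.532 CPM with both (SD, n = 3; -3.67, adjusted p = 9.1e-33). Of the 14 other tested PARP family genes, 8 were called higher and 4 lower with both drugs (85.7% called, beside 81.7% of all tested genes), and 6 and 6 by library size alone. PARP4, the vault-associated member, was at 266 ± 3.64 CPM in non-treated cells and 302 ± 10.8 CPM with both (0.19, but -0.08 by library size alone), and ZC3HAV1, the antiviral zinc finger member, went from 119 ± 2.29 to 187 ± 9.67 CPM (0.65, adjusted p = 1.8e-19). Further members were chosen after their values were seen. PARP2, which shares the DNA repair role of PARP1, fell by 2.81 with both drugs and by 1.61 with CDK4/6i, and with ATRA it was not called (-0.18). PARP14 had 2 to 7 reads per non-treated library, 25 to 42 with ATRA and 28 to 31 with both drugs, and passed the filter only through the libraries that received ATRA. TIPARP rose by 1.64 with both drugs.

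In the route from tryptophan, 3 of 8 genes were tested, and they moved in both directions. AFMID, the kynurenine formamidase, fell from 59.9 ± 2.45 CPM to 20.8 ± 0.476 CPM with ATRA and 6.34 ± 0.969 CPM with both (SD, n = 3; log2 fold change -3.24, adjusted p = 9.6e-35). HAAO, the dioxygenase that makes the precursor of quinolinate, rose by 0.74 (adjusted p = 0.0090), a call lost by library size alone (0.47). KMO, the kynurenine hydroxylase between them, chosen after its values were seen, had 2 to 4 reads per non-treated library and 172 to 202 with both drugs (fitted log2 fold change 6.30), and passed the filter only through the libraries that received ATRA.

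Among the NAD kinases and carriers, NADK, the cytosolic kinase that makes NADP, rose from 73.6 ± 2.17 to 135 ± 11.3 CPM with both drugs (0.87, adjusted p = 3.9e-22). The mitochondrial counterpart NADK2, chosen after its values were seen, fell from 50.4 ± 1.53 to 6.21 ± 0.506 CPM (-3.02, adjusted p = 2.8e-32). NAXE, an epimerase that repairs damaged NADH, fell by 1.12. Of the salvage genes, PNP, which frees nicotinamide from its riboside, fell by 0.18 with both drugs, and NMRK1, the nicotinamide riboside kinase, rose by 0.93 (adjusted p = 1.9e-06). Of the 6 tested sirtuins, NAD-dependent deacylases, 4 were called higher and 2 lower with both drugs (beside 41.0% and 40.7% of all tested genes), with SIRT6 at 0.68 and SIRT7 at 0.45, and 3 and 2 by library size alone. In TPM, SIRT7 was at 29.4 ± 2.84 with both drugs and 28.8 ± 2.15 in non-treated cells (SD, n = 3), so its rise was not seen on that scale. SARM1, the NAD hydrolase of axon degeneration and the only tested gene of its sublist, had 4 to 17 reads per library and was not called (0.51, adjusted p = 0.345). Of the calcium channels that ADP-ribose or NAADP can open, TPCN1 rose by 0.68 with both drugs. TRPM2 rose with each drug alone, by 0.31 with ATRA and 0.35 with CDK4/6i, and fell by 0.13 with both.

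**Figure D5:**
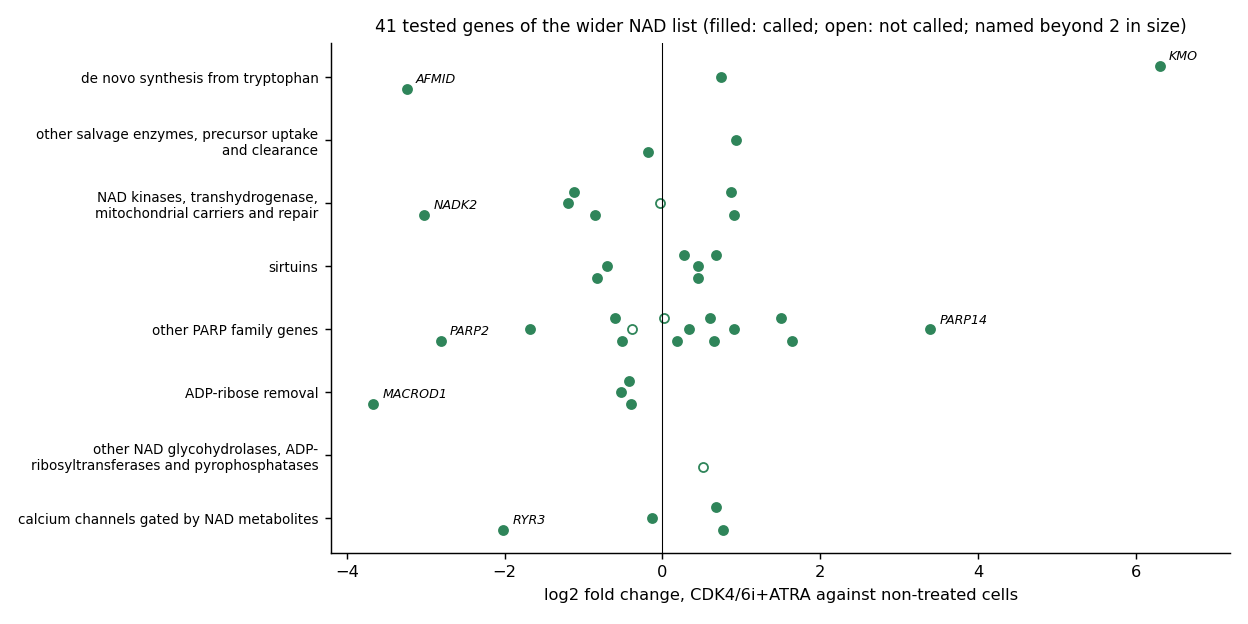
Log2 fold change of CDK4/6i+ATRA-treated over non-treated cells (horizontal axis) for the 41 tested genes of the wider NAD list, 1 row per sublist. Filled points were called at an adjusted p under 0.05 and open points were not, and genes beyond 2 in size are named. The points lie on both sides of 0, with KMO at 6.30 and MACROD1 at -3.67 at the ends.

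Lastly, the genes whose pattern came nearest to 3 of the genes were found among 9300 genes with a mean of at least 5 CPM, by the root mean square difference of the 3 log2 fold changes against non-treated cells. For CD38 the nearest were LRRC32 (distance 0.190), SELP (0.606) and CD36 (1.05). LRRC32 and CD36 had 0 reads in all libraries without ATRA, so their fitted fold changes depend on the prior count. Leaving out 1 non-treated library moved that of CD38 itself from 11.06 to 13.37, so the order of these distances is not resolved. LRRC32, the membrane anchor of latent TGF-beta, stood at 15.5 ± 0.399 CPM with ATRA and 21.0 ± 3.09 CPM with both (SD, n = 3). SELP, the adhesion molecule P-selectin, had at most 2 reads in any library without ATRA and stood at 57.2 ± 3.03 CPM with ATRA and 149 ± 6.55 CPM with both. For BST1 the nearest were SKAP2 (0.0311), C19orf38 (0.0334) and STK38L (0.0501), and SKAP2, a myeloid adaptor protein, ran from 114 CPM in non-treated cells through 171 CPM with CDK4/6i to 439 CPM with both. For NAMPT the nearest were SLC16A6 (0.137), ME1 (0.164) and SRXN1 (0.180). ME1, the cytosolic malic enzyme that makes NADPH, stood at 31.2, 31.2, 49.3 and 156 CPM in non-treated, ATRA-, CDK4/6i- and CDK4/6i+ATRA-treated cells. By Pearson correlation of log2(CPM + 1) over the 12 libraries, which share the 4 groups, the first were TGM2 for CD38 (r = 0.999), SKAP2 for BST1 (r = 0.993) and RNF187 for NAMPT (r = 0.996).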

How the data were processed

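The read counts per gene were deposited by the authors as whole numbers for 12 libraries of HL60 cells, made with a directional kit. Per the labels and methods, reads were trimmed (Trimmomatic 0.33), aligned with STAR 2.7.11a to hg38 and counted per RefSeq gene. The methods name RSEM, whereas the table has the layout of featureCounts, and whether counting used strand is not given in the sources used here.

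From these counts, filterByExpr of edgeR 4.0.16 kept 13318 of 59251 genes. TMM factors (0.840 to 1.07), a quasi-likelihood fit over the 4 groups of 3 libraries (8 residual degrees of freedom, common biological coefficient of variation 3.70%) and Benjamini-Hochberg adjustment over all tested genes followed. Because the spread is shared between genes, the tests and intervals of the 8 genes used 46.8 degrees of freedom. Genes with an adjusted p under 0.05 were called. Intervals are 95% and cover the fitted spread, and those of count ratios and the floor of 3 counts cover counting error only. Each SE was taken from the test statistic, and it understates the uncertainty of a large change from a group near 0. The labels call the replicates biological and do not tell separate cultures from aliquots, so p-values measure the spread between these libraries. No per-library column was left out.

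The 10 genes and the wider lists were chosen with earlier results of these data known. Further genes were named by rule: the 2 tested genes of highest mean RPKM in each sublist, the 3 nearest tested genes on each side of BST1 and CD38, overlapping genes, controls and markers, and the 3 genes most like CD38, BST1 and NAMPT. Genes named outside it are marked in the text.

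The fit was tested on simulated data of 13318 genes: for ATRA it recovered 186 of 200 changed genes with 15 false among 201 calls, and for the interaction 179 with 8 false among 187. The 200 genes were changed in 1 group, as many up as down, far fewer than were called in the data. This simulation therefore did not test the choice of scaling. Alternatives were DESeq2 1.42.0 (test and size factors), library size alone, other filters, a replicate block, fits on only the groups compared, each library left out, and TPM.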

Additional observations from a re-analysis of the deposited data

Results flagged for a closer look

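For 3 of the genes, the ATRA effect in the presence of CDK4/6i differed from that in its absence by the interaction test of the edgeR fit. For NAMPT the log2 difference between the effects was 2.00, with an ATRA effect of 1.96 in the presence of CDK4/6i and -0.04 in its absence. For PARP1 it was -1.58, with effects of -2.33 and -0.74. For NADSYN1 it was -0.34, with effects of -0.08 and 0.25. Groups of 3 libraries are too small for the test of single outlying samples.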

How the results depend on the processing

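Of 892 log2 fold changes recomputed under alternatives for 48 results of the 8 tested genes, 862 kept their direction and their side of the threshold, 6 lost a call, 8 gained one and 16 changed sign. The numbers of genes called in either direction stayed within 1.5 times the reported ones for the 8 genes and the wider list under every alternative run, but the split by direction moved with the scaling: by library size alone the interaction was called higher for 1375 and lower for 6061 of all genes, in place of 3258 and 3594. By library size alone, the log2 difference between CDK4/6i+ATRA and ATRA was -0.28 for CD38 and -0.13 for NADSYN1, the interaction of BST1 was -0.080 and the ATRA effect on NAMPT was 0.00047. With no filter the CD38 difference was -0.072. With only the groups compared it was -0.043, and the ATRA effect on NAMPT was 0.00086. With 1 library left out at a time, CD38 ranged from -0.45 to 2.39 for CDK4/6i against non-treated cells and from -2.37 to 0.47 for the interaction, and NMNAT3 from -1.001 to 0.22 for CDK4/6i+ATRA against ATRA. The NMNAT3 difference between CDK4/6i+ATRA and non-treated cells, not called, was called by library size alone (-1.43), without non-treated replicate 2 (-1.46) and without CDK4/6i+ATRA replicate 3 (-1.97). With ATRA against non-treated cells, leaving out 1 library gave 5 to 6 called genes, and NMNAT3 ranged from -1.26 to -0.49. The cause of these changes was not tested. Requiring at least 10 counts in every library removed CD38 and NMNAT3. The replicate numbers did not pair the libraries (18 same-number pairs, r between -0.0609 and 0.0283), and with the replicate block 48 of 48 values kept their call, for example 2.00 for the interaction of NAMPT. Depth limits CD38 without ATRA and NMNAT3 and QPRT in all groups.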
